A study of Homo sapiens with 3 samples.

Results

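The interferon regulatory factor (IRF) genes examined here were IRF1, IRF2, IRF3, IRF4, IRF5, IRF7, IRF8 and IRF9, 8 of the 19775 genes on the array with a gene symbol. They were taken as every probe set whose only gene symbol in the platform annotation was one of these names, which gave 13 of 41091 probe sets. IRF4 and IRF5 had 3 each, IRF1 had 2, and the other members had 1. One further probe set annotated both to IRF9 and to another gene was left out. RNA came from SKBR3 cells, an established line from a human breast carcinoma that carries an amplified ERBB2 gene and is known for lacking oestrogen receptor α. After 4 h in medium with serum stripped of steroids by charcoal, cells were given 1 µM estradiol, 1 µM ERα17p or 0.1% ethanol as vehicle, and RNA was taken 3 h later. ERα17p is a synthetic peptide copied from oestrogen receptor α, and the labels do not name its solvent. Each condition was 1 array, 3 in all, so no value below has an error or a test, and the precision is limited by this number of arrays. The family was chosen by name but selected on these same values, since the IRF1 differences between the arrays were already known, so all values of its members are a description.

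IRF proteins are transcription factors that bind DNA of the interferon-stimulated response element type through a shared tryptophan-rich domain. IRF1 is induced by interferon γ through STAT binding to a gamma-activated sequence (GAS) and by cytokines such as TNF through NF-kB, and IRF2 competes with it for the same sites. IRF3, IRF5 and IRF7 are switched on by phosphorylation downstream of viral sensors, IRF9 is the DNA-binding subunit of the ISGF3 complex that answers type I interferon, and IRF4 and IRF8 are known mainly from lymphoid and myeloid cells.

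RefSeq start-site windows (GRCh38.p14) were matched for IRF1, IRF4, IRF5, IRF8 and IRF9, 5 of the 8 members, with 9 windows in all, since IRF5 had 4 and IRF8 had 2. IRF2, IRF3 and IRF7 had no entry. The 250 bases before the start are shown for IRF1, the member with the widest difference between arrays, and for IRF9, the member that differed most between estradiol and ERα17p in its gene value. Capitals mark matches to an NF-kB motif or to GAS (TTCNNNGAA).
IRF1, chr5:132490774-132491023, minus strand: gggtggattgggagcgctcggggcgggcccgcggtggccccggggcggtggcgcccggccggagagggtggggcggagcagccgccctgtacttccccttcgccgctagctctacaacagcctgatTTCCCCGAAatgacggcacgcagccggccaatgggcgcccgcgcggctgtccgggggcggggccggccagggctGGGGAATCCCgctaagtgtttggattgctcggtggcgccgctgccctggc
IRF9, chr14:24161015-24161264, plus strand: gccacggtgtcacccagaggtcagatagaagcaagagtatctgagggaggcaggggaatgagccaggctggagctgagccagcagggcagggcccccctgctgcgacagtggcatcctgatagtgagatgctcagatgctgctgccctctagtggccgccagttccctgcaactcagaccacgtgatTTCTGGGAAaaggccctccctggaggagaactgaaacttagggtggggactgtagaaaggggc
In the IRF1 window the GAS match lay at bases -124 to -116 from the start and the NF-kB match at bases -50 to -41. The IRF9 window held a GAS match at bases -63 to -55 and no NF-kB match. The NF-kB match read on both strands. A GAS match always does, since TTCNNNGAA is its own reverse complement. No match overlapped another. An ISRE motif (GAAA, any 2 bases, GAAA) was found in no member's window. Among all 35116 windows of 300 bases, 5.91% held the NF-kB motif on either strand, 7.66% GAS and 3.57% the ISRE. The windows of IRF4, IRF5 and IRF8 held none of the 3 motifs. A match is only a run of letters, and its absence says nothing about binding of a factor.

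**Figure D1:**
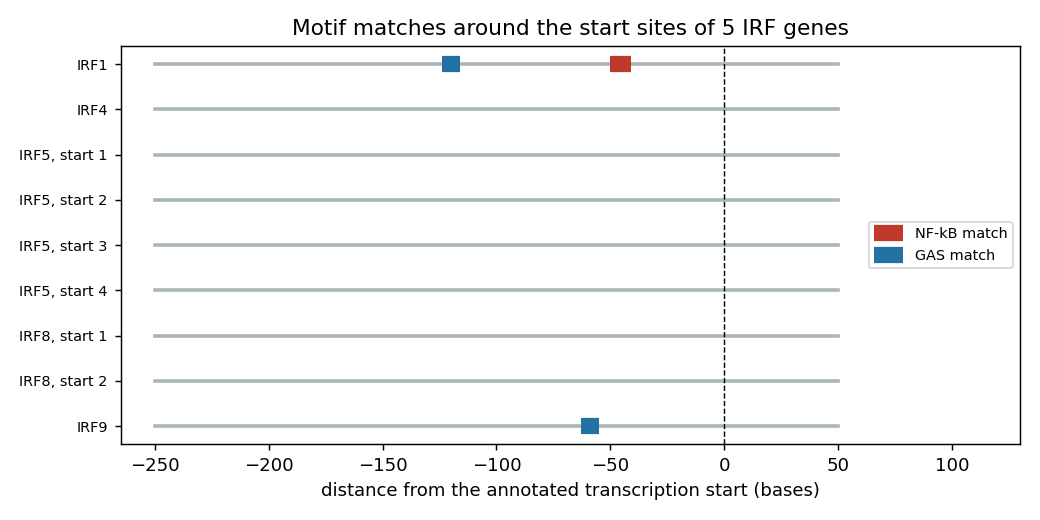
Motif matches in the RefSeq start-site windows of 5 IRF genes, 1 row per window, drawn by distance in bases from the annotated transcription start (dashed line). Matches were found in the IRF1 window (GAS and NF-kB) and the IRF9 window (GAS) and in none of the 7 other windows.

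The deposited values are distances from a baseline that had been subtracted from each probe set, read here as log2. They show how the 3 arrays differ for a probe set, but not how strongly a gene is expressed or whether it is expressed at all. In this bulk RNA fewer cells of a type and less RNA per cell cannot be told apart. "Lower" and "higher" are used below for differences of at least 1.5-fold (0.585 log2 units). The array labelled vehicle stood apart over the whole genome. Genes at least 1.5-fold above the baseline numbered 1 with estradiol, 13 with ERα17p and 465 on the vehicle array. Over all probe sets the SD was 0.12 with estradiol, 0.13 with ERα17p and 0.27 on the vehicle array. The 3′ probe set of the actin gene ACTB minus its 5′ probe set, a contrast related to RNA integrity, gave 0.02 with estradiol, -0.04 with ERα17p and 0.30 on the vehicle array. For GAPDH the same measure gave 0.01, -0.03 and 0.05 in that order. As each probe set had its own baseline subtracted, only differences between arrays can be read, and a value near 0 does not show intact RNA. The part of these array-wide features in the differences from the vehicle array was not tested.

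IRF1, a transcriptional activator, showed by far the widest difference of the 8 members. Its probe set 202531_at lay at -0.26 log2 units with estradiol, 0.39 with ERα17p and 3.48 on the vehicle array. For the second, 238725_at, the values were -0.03 with estradiol, 0.03 with ERα17p and 3.59 on the vehicle array. The vehicle array was far above both treated arrays in each of the 2 probe sets, which ranked 12 and 11 from the top of that array among 41091. With estradiol IRF1 was 13.3-fold lower than on the vehicle array by 202531_at and 12.3-fold lower by 238725_at. With ERα17p it was 8.53-fold and 11.8-fold lower. As a gene, taken as the median over its probe sets, IRF1 differed by -3.68 log2 units with estradiol and by -3.33 with ERα17p, rank 8 from the lowest of 19775 genes in each comparison. Both comparisons use the same vehicle array and are not separate evidence. When the 3 arrays were quantile normalized, which evens out the wide spread of the vehicle array, the gene differences were -1.81 and -1.26. Set against the authors' baseline in place of the vehicle array, they were -0.14 with estradiol and 0.21 with ERα17p.

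Between the treated arrays the probe sets of IRF1 did not give the same size. Estradiol minus ERα17p was -0.65 by 202531_at, rank 73 from the lowest of 41091, and -0.06 by 238725_at, near the middle of all probe sets. The gene value of -0.35 lay within the 1.5-fold limit. In 238725_at the estradiol and ERα17p values were exact mirror images around 0, which means that the baseline of that probe set was their midpoint. Mirror pairs occurred in 2 of the 13 member probe sets, against 7.28% of all probe sets (tolerance 1e-06, values over 0.001).

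IRF2, the competitor of IRF1 at its DNA sites, did not share that difference. Its probe set lay at -0.11 log2 units with estradiol, 0.01 with ERα17p and 0.05 on the vehicle array. The differences were -0.16 for estradiol minus vehicle, -0.04 for ERα17p minus vehicle and -0.11 for estradiol minus ERα17p. In each comparison these lay inside the range that holds the central 95% of probe sets, which ran from -0.69 to 0.52, from -0.61 to 0.46 and from -0.36 to 0.39.

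**Figure D2:**
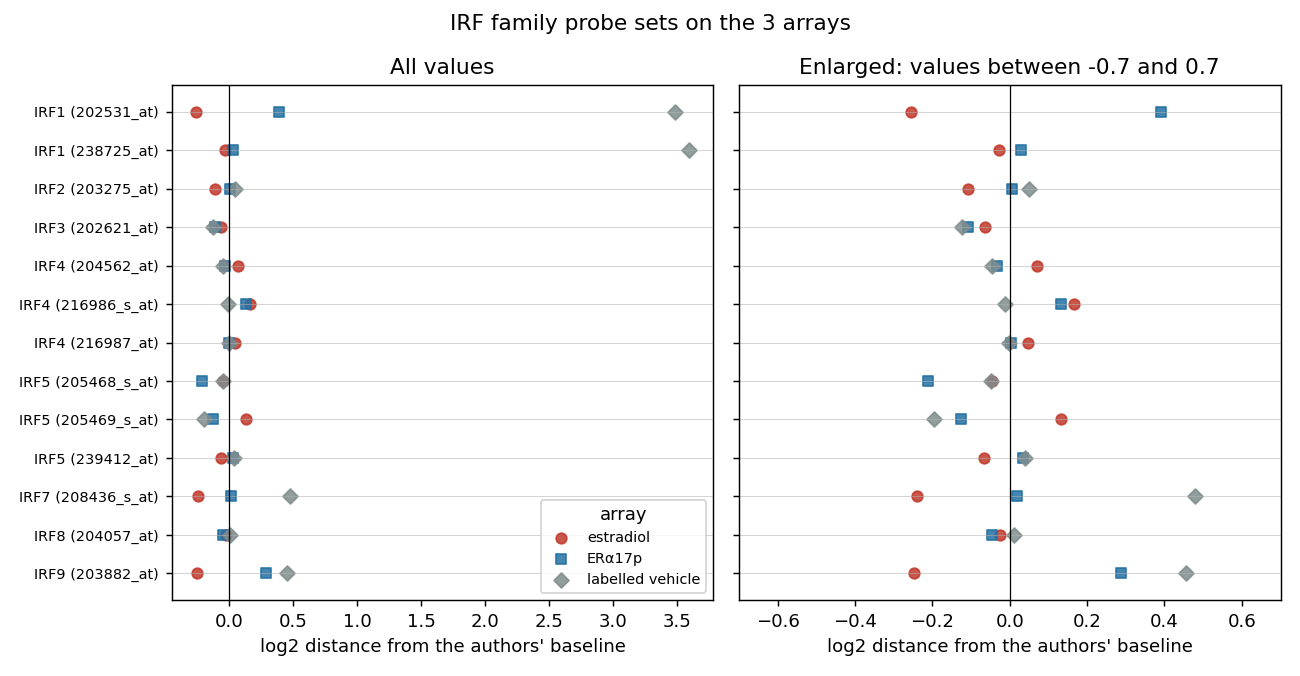
Log2 distance from the authors' baseline for the 13 IRF probe sets on the estradiol, ERα17p and vehicle arrays, 1 point per array, with values between -0.7 and 0.7 enlarged on the right. The vehicle points of both IRF1 probe sets lie at 3.48 and 3.59, and those of IRF7 and IRF9 at 0.48 and 0.46, while the other vehicle points lie between -0.19 and 0.05.

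IRF9, which gives the ISGF3 complex its DNA contact, was low on the estradiol array and stood above the baseline on both others. Its probe set had -0.25 log2 units with estradiol, 0.29 with ERα17p and 0.46 on the vehicle array. Estradiol minus vehicle was -0.70, or 1.63-fold lower, whereas ERα17p minus vehicle was -0.17 and within the 1.5-fold limit. The estradiol array was also below the ERα17p array, by -0.54 log2 units or 1.45-fold, short of the limit but rank 187 from the lowest of 41091 probe sets and 58 from the lowest of 19775 genes. No other member had a gene value so far down in that comparison. Quantile normalization took this difference to -0.76, past the limit, and ERα17p minus vehicle to 0.14. That step stretches the narrower treated arrays to a spread shared with the vehicle array. Lower list genes between the treated arrays then numbered 12 in place of 5, with no count over all genes to set beside them. Passing the limit in this way adds no evidence on IRF9. The rank of the IRF9 value on the ERα17p array itself was 702 from the highest of 41091.

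Of the members activated by phosphorylation, IRF7 differed and IRF3 did not. IRF7, the amplifier of type I interferon production, lay at -0.24 log2 units with estradiol, 0.02 with ERα17p and 0.48 on the vehicle array. It was 1.64-fold lower with estradiol than on the vehicle array (-0.72) and 1.38-fold below it with ERα17p (-0.46), which is within the limit. Estradiol minus ERα17p was -0.26. IRF7 thus had the order of IRF1, IRF2 and IRF9, with the estradiol array lowest and the vehicle array highest, on a single probe set that can take up more than 1 transcript. IRF3, which is made constantly and controlled at the protein level, had -0.06 with estradiol, -0.11 with ERα17p and -0.12 on the vehicle array, so that its 3 differences lay between 0.02 and 0.06.

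IRF5, an activator of inflammatory cytokine genes downstream of Toll-like receptors, had 3 probe sets that did not share an order. By 205469_s_at it lay at 0.13 log2 units with estradiol, -0.13 with ERα17p and -0.19 on the vehicle array. By 205468_s_at it had -0.05, -0.21 and -0.05 in that order, and by 239412_at -0.07, 0.03 and 0.04. The estradiol array was highest in 2 of these probe sets and lowest in the third. Estradiol minus vehicle ran from -0.11 to 0.33 over them, ERα17p minus vehicle from -0.16 to 0.07, and estradiol minus ERα17p from -0.10 to 0.26, with gene values of 0.00, -0.08 and 0.08.

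The members known from blood cells, IRF4 and IRF8, hardly differed between arrays. Estradiol minus vehicle was 0.12, 0.18 and 0.05 log2 units in the IRF4 probe sets 204562_at, 216986_s_at and 216987_at, and -0.04 in the probe set of IRF8. ERα17p minus vehicle was 0.01, 0.15 and 0.01 in IRF4 and -0.06 in IRF8. The 3 probe sets of IRF4 all had the estradiol array highest and the vehicle array lowest, by 0.18 log2 units at most. Because the values carry no level, it is unknown whether either gene was expressed. Of 9 analysed leukocyte markers, PTPRC, CD14 and MS4A1 among them, none was lower or higher by its gene value in any comparison. None of 4 fibroblast and 3 endothelial markers was. Nor were 8 markers of the SKBR3 line such as ERBB2, KRT8 and EPCAM, whose differences lay between -0.14 and 0.28. Over all genes 2.93% were lower and 0.809% higher for estradiol minus vehicle, so few markers would pass the limit in any case. Of the 2 probe sets of the leukocyte marker ITGAM, 1 did pass it, with -0.66 for estradiol minus vehicle and -0.76 for ERα17p minus vehicle. The other had 0.30 and -0.13.

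Counted together, 4 of the 13 member probe sets were lower with estradiol than on the vehicle array, both of IRF1 and those of IRF7 and IRF9, and none was higher. Over all 41091 probe sets 3.71% were lower and 1.38% higher. With ERα17p 2 of 13 were lower, both of IRF1, where 2.76% of all probe sets were, and none was higher (0.886% of all). For estradiol minus ERα17p 1 of 13 was lower, 202531_at of IRF1, where 0.29% of all probe sets were, and none was higher (0.314% of all). Without IRF1 the median of the other 7 genes was -0.04 for estradiol minus vehicle, -0.06 for ERα17p minus vehicle and 0.02 for estradiol minus ERα17p, beside 0.03, 0.03 and -0.01 over all genes. Against the authors' baseline in place of the vehicle array, no member probe set was lower or higher with either treatment. That baseline lay close to both treated arrays over all genes. Only 1 gene was at least 1.5-fold above it and 10 below it with estradiol, and 13 above and 1 below with ERα17p. This reference could therefore hardly give another count. With the vehicle array as reference the family comprised IRF1 far out, IRF7 and IRF9 just beyond 1.5-fold with estradiol, and 5 members near 0.

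**Figure D3:**
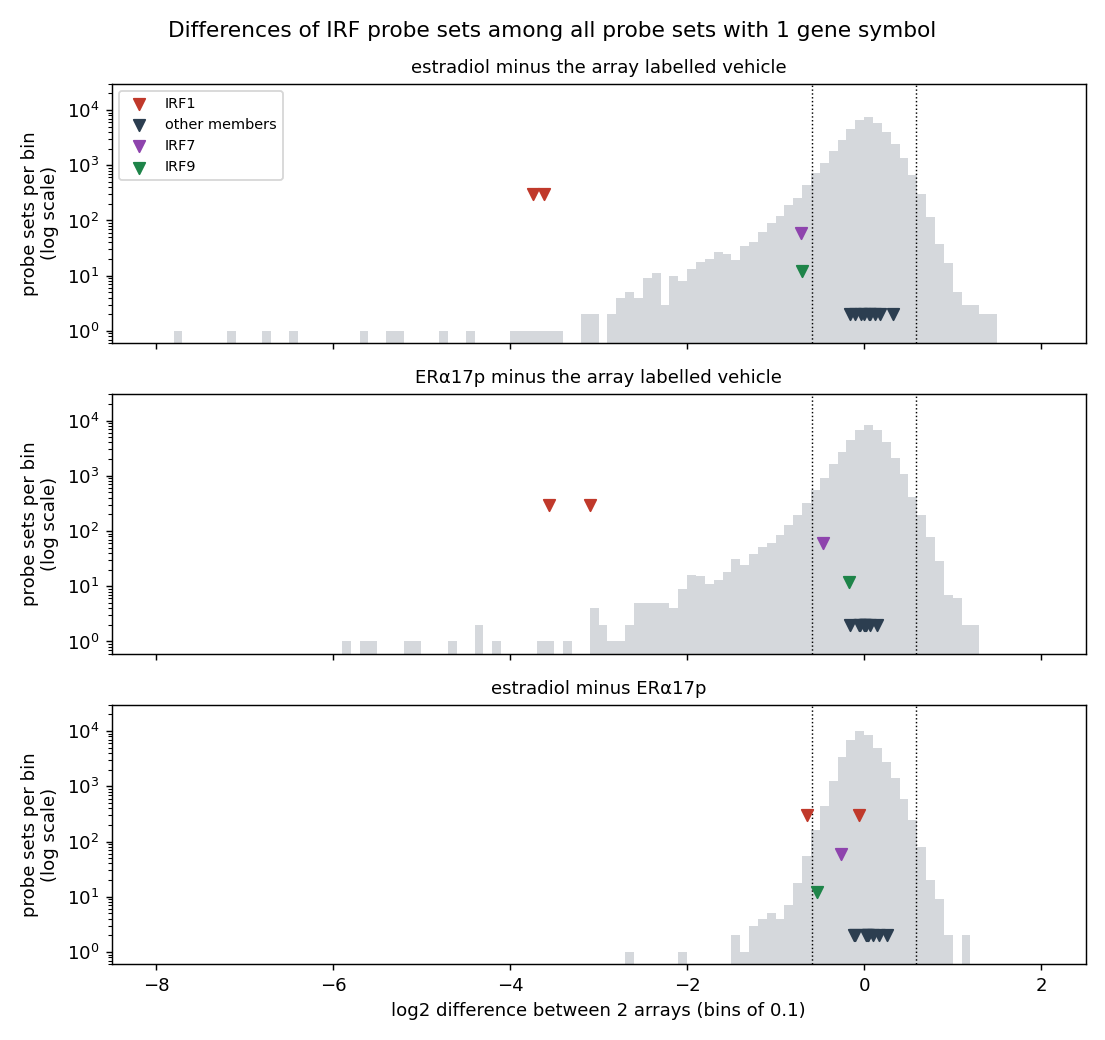
Log2 differences between arrays for IRF probe sets (triangles, set at arbitrary heights by gene) over the histogram of all 41091 probe sets with 1 gene symbol, on a logarithmic count axis, with dotted lines at 1.5-fold. The IRF1 triangles lie at -3.74 and -3.62 for estradiol minus vehicle and at -3.09 and -3.56 for ERα17p minus vehicle, and at -0.65 and -0.06 for estradiol minus ERα17p.

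The genes nearest to IRF1 in their 3 array values, by Euclidean distance over gene medians, were PPP1R15A, a phosphatase subunit of the stress response (distance 0.60 log2 units), the chemokine gene CXCL3 (0.64), the pro-apoptotic gene PMAIP1 (0.68), RASD1, which encodes a small G protein (0.77), and the chemokine gene CXCL10 (0.83). Symbols that begin with LOC were left out of this ranking. With only 3 arrays, 1 high vehicle value places a gene in this group. Their vehicle values ran from 2.80 (CXCL10) to 4.02 (CXCL3), beside 3.54 for IRF1. PPP1R15A, PMAIP1 and CXCL10 also had the order of IRF1 between the treated arrays, with estradiol minus ERα17p of -0.10, -0.55 and -0.60. CXCL3 and RASD1 had the opposite order, by 0.24 and 0.29.

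The genes around the family were followed in 6 lists. These lists were chosen with earlier results of these data known, so their counts are a description too. As background, 2.93% of all genes were lower and 0.809% higher with estradiol than on the vehicle array. With ERα17p these shares were 2.14% and 0.582%, and for estradiol minus ERα17p 0.207% and 0.147%. Among inducers of IRF1 and genes of the NF-kB pathway, 8 of 14 analysed genes were lower with estradiol than on the vehicle array and none higher, with a median of -0.95. They were led by the cytokine gene TNF (-5.38), the feedback gene TNFAIP3 (-4.98), the inhibitor gene NFKBIE (-2.01) and the subunit gene RELB (-1.55). With ERα17p 9 of 14 were lower (median -0.83), with TNF at -4.65 and TNFAIP3 at -3.99. Not all probe sets of the counted genes differed. For ERα17p minus vehicle those of NFKBIA ran from -2.18 to 0.11 and those of NFKB2 from -1.96 to 0.08. The gene values of these, named after they were seen, were -1.04 and -0.59. For estradiol minus vehicle the probe sets of NFKBIA ran from -2.73 to 0.07. TNFAIP3 (-0.98) and TNF (-0.73) were also lower with estradiol than with ERα17p, the only 2 of the list past the limit there, and with ERα17p both stood above the baseline, by 0.84 and 0.64. The genes of interferon γ and interferon β themselves, IFNG and IFNB1, differed by 0.17 and 0.23 for estradiol minus vehicle.

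Genes of interferon receptors and their kinases were nearer to 0. Of 15 analysed genes for interferons, their receptors and JAK kinases, IFNGR1 (-0.89) and IFNGR2 (-0.61), both chains of the interferon γ receptor, were lower with estradiol than on the vehicle array. Both were lower with ERα17p as well, by -0.83 and -0.81, and none of the list was higher. The list's median was -0.02 with estradiol and -0.08 with ERα17p. IFNAR2, a chain of the type I receptor, had -0.41 with estradiol, with its 3 probe sets between -0.70 and -0.01, and the epithelial interferon gene IFNE had 0.37.

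Of 16 analysed sensors, adaptors and kinases that lie upstream of IRF3, IRF5 and IRF7, 4 were lower with estradiol than on the vehicle array and none higher, with a median of -0.19. They were TICAM1, the adaptor of TLR3 (-1.31), IFIH1, the RNA sensor MDA5 (-0.95), TBK1, the kinase that phosphorylates IRF3 (-0.67), and the ubiquitin ligase gene TRAF3 (-0.64). With ERα17p 3 were lower (median -0.13), namely TICAM1 (-1.46), IFIH1 (-0.82) and TRAF3 (-0.69), while TBK1 had -0.53. Between the treated arrays none was past the limit. Among 15 partners and co-repressors of IRF proteins none was lower or higher in any comparison by its gene value. The widest for estradiol minus vehicle were IRF2BP2 and IRF2BPL, which encode IRF2-binding proteins (-0.47 and 0.39), the acetyltransferase gene EP300 (-0.46) and TRIM21, a ubiquitin ligase gene (-0.43). For ERα17p minus vehicle IRF2BPL had 0.52, and for estradiol minus ERα17p the widest was SPI1 (-0.43), a partner of IRF4 and IRF8. Gene values hid single probe sets here: the 6 of IRF2BP2 ran from -0.72 to 0.19 for estradiol minus vehicle. The 3 of IKZF3, named after its values were seen, ran from -0.84 to -0.11 for ERα17p minus vehicle, with a gene value of -0.49. For estradiol minus ERα17p they ran from -0.04 to 0.69, with a gene value of 0.33. The 3 of PRDM1, a repressor gene named after its values were seen, ran from -2.55 to 0.21 for estradiol minus vehicle and from -2.04 to 0.04 for ERα17p minus vehicle, with gene values of -0.23 and -0.09.

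Genes known as direct targets of IRF1 in human or mouse cells were lower in 7 of 19 analysed cases with estradiol against vehicle (median -0.22, none higher). The widest were CXCL10 (-2.83), the guanylate-binding protein genes GBP2 (-1.77) and GBP1 (-1.19), and CD274, which encodes the checkpoint ligand PD-L1 (-0.75). Probe sets of GBP1 ran from -1.27 to -0.07 and those of CD274 from -1.27 to -0.23. With ERα17p 5 were lower (median -0.19), namely CXCL10 (-2.23), GBP2 (-1.28), GBP1 (-0.81) and, named after their values were seen, PTGS2 (-0.61) and TAP1 (-0.60). The 2 probe sets of PTGS2 disagreed, at -1.16 and -0.06 for ERα17p minus vehicle and at -1.16 and -0.11 for estradiol minus vehicle. CXCL10 was the only one of the list past the limit between the treated arrays (-0.60 for estradiol minus ERα17p). The antigen-presentation targets were not uniform, since the peptide transporter gene TAP1 had -0.69 with estradiol against vehicle but the immunoproteasome subunit genes PSMB8, PSMB9 and PSMB10 had -0.25, -0.33 and -0.01.

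Genes driven by ISGF3, the complex that contains IRF9, mostly lay further down on the estradiol array than on the others, with 16 of 20 below 0 for estradiol minus vehicle, where 8658 of all 19775 genes were. Of the 20, 5 were lower with estradiol than on the vehicle array and none higher (median -0.26): IFIT1 (-1.34), IFIT3 (-0.86), IFI44L (-0.85), IFIT5 (-0.65) and, named after its value was seen, IFIT2 (-0.63). With ERα17p none was lower or higher than on the vehicle array by its gene value, and the median was 0.02. Single probe sets of OAS2 (-1.10), XAF1 (-0.83) and IFIT3 (-0.63) did pass the limit there. The highest probe sets of the same genes had 0.36, 0.30 and 0.15. For estradiol minus ERα17p IFIT1 (-1.42) and IFIT3 (-0.63) were lower, 19 of 20 genes lay below 0, and the median was -0.23, beside -0.01 over all genes, of which 10663 of 19775 lay below 0. IFIT1, which encodes an RNA-binding antiviral protein, had -1.12 with estradiol, 0.30 with ERα17p and 0.22 on the vehicle array. The 2 probe sets of IFIT3 disagreed, at -1.77 and 0.05 for estradiol minus vehicle, and those of IFIT2 at -1.66 and 0.40. Set against the authors' baseline, IFIT1 was the only gene of the 6 lists lower with estradiol, and TNF and TNFAIP3 were the only genes higher with ERα17p.

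**Figure D4:**
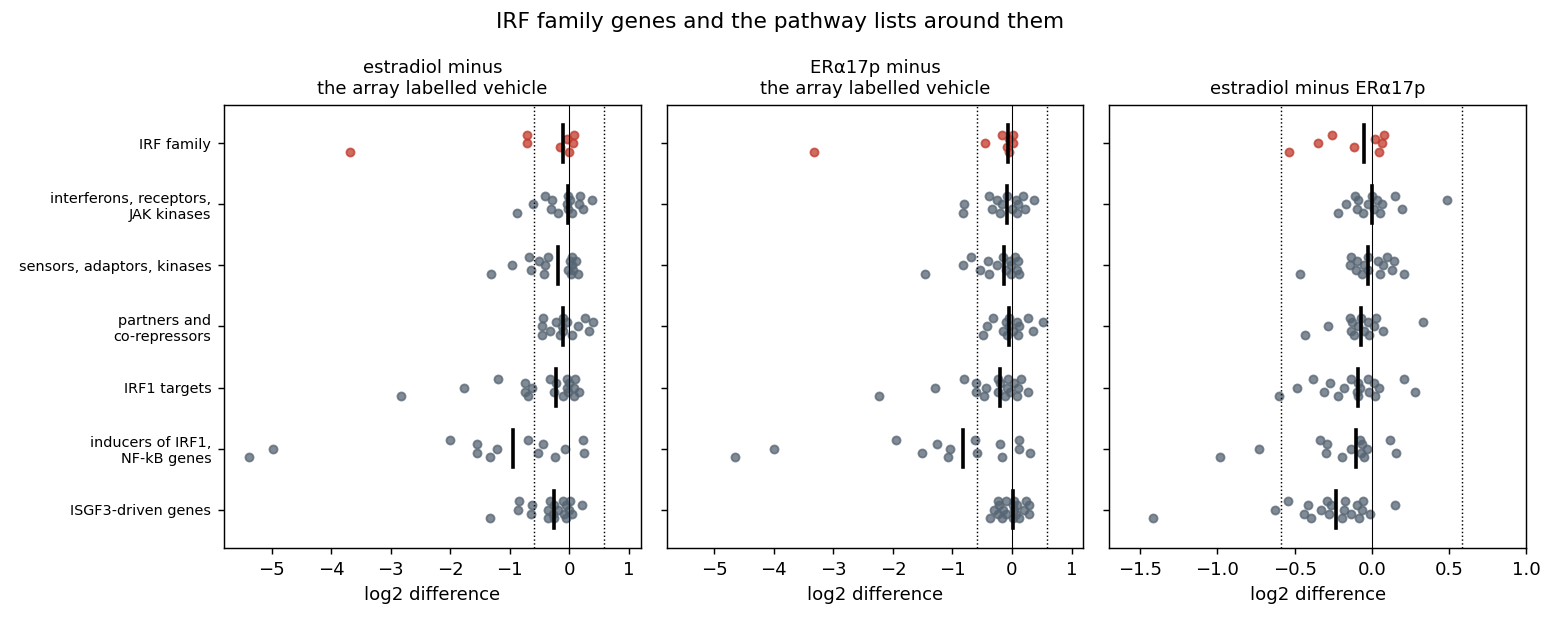
Log2 differences of the 8 IRF genes (top row) and of the genes of 6 pathway lists, 1 point per gene, with the median of each row as a vertical bar and dotted lines at 1.5-fold; the right panel has its own scale. IRF1 stands alone at -3.68 and -3.33 in the family's row of the first panels, and the ISGF3 row has its median at -0.26, 0.02 and -0.23 in the 3 panels.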

How the data were processed

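RNA of SKBR3 cells was hybridised to 1 Affymetrix array per condition, and the labels gave the groups. The authors computed the values with RMA, per the submitters' processing notes; the sources used here give neither its version nor the later subtraction of a baseline per probe set. As RMA yields log2 values, the deposited values were taken as log2, although no source names the base. Gene names came from the platform annotation and were brought by Entrez ID to those of the RefSeq gene table of GRCh38.p14: of 54675 probe sets 41091 had 1 symbol, 1801 several, 11721 none here and 62 were controls. Of the 41091, 41037 matched by Entrez ID.

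Differences between 2 arrays were computed per probe set, and per gene as differences of medians over probe sets (Python 3.11.15, pandas 2.3.3), with no filter. As each group had 1 array, no test was made, and differences of at least 1.5-fold were counted. The scripts were tested on simulated data with little noise and changes well past the 1.5-fold limit. Changes near the limit were not simulated. Members and lists were chosen with earlier results of these data known. Text names all members, the 4 genes per list with the widest estradiol minus vehicle difference, genes past 1.5-fold between the treated arrays, the 5 genes nearest to IRF1, and others where values are given for contrast. Genes of the lists without a probe set of their own symbol were not analysed here. Alternatives were a 2-fold rule, subtracted array medians, quantile normalization, probe sets of type _at only, the mean over probe sets, and the authors' baseline as reference.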

Additional observations from a re-analysis of the deposited data

How the results depend on the processing

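No paired analysis was possible because each group had 1 array, and no array could be left out. Under the 2-fold rule, lower member probe sets numbered 2 in place of 4 for estradiol minus vehicle and 0 in place of 1 for estradiol minus ERα17p. Lower list genes, of 99 in all, then numbered 12 in place of 26 for estradiol minus vehicle, 10 in place of 19 for ERα17p minus vehicle, and 1 in place of 5 between the treated arrays, as a stricter rule must give fewer. After quantile normalization these counts were 15, 6 and 12. In each of the comparisons that involve ERα17p 1 list gene was then higher, where none was before. Member probe sets lower for estradiol minus ERα17p numbered 2 in place of 1. Apart from the authors' baseline, the shares of all genes and probe sets past the limit were not counted under the alternatives. The counts under them therefore have no background beside them. With the authors' baseline in place of the vehicle array, 0 member probe sets were lower with estradiol and 0 with ERα17p, 1 list gene was lower with estradiol, and 0 were lower and 2 higher with ERα17p. The IRF1 difference with ERα17p was then 0.21 in place of -3.33. As both treated arrays lay close to that baseline over all genes, this reference could hardly give large counts. With the _s_at, _x_at and _a_at types left out, 3 list genes were lower for estradiol minus ERα17p in place of 5, among 83 list genes left. The cause of these shifts was not tested. Subtracting array medians moved no count, and the mean over probe sets moved none by more than 1.5 times. Signal over background is unknown for every probe set.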

Other observations

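The genes that flank the IRF genes on their chromosomes in the RefSeq order (the nearest with a probe set on each side, and 1 that overlaps) did not share the differences of IRF1, IRF7 and IRF9. Of these 17 genes none was lower or higher in any comparison. Over all genes 2.93% were lower and 0.809% higher for estradiol minus vehicle, and fewer in the other comparisons. At such shares hardly any of 17 genes would pass the limit in any case. Their values lay between -0.14 and 0.27 log2 units for estradiol minus vehicle, between -0.11 and 0.27 for ERα17p minus vehicle, and between -0.15 and 0.13 for estradiol minus ERα17p. CARINH, a non-coding RNA gene next to IRF1, had 0.01 for estradiol minus vehicle and -0.07 for ERα17p minus vehicle, and IL5, the interleukin gene on its other side, had -0.11 and 0.00. Beside IRF9 lie RNF31, a ubiquitin ligase gene with 0.23 and 0.27, and REC8, a meiotic cohesin gene with 0.03 and -0.06. BCL2L12, a gene of the BCL2 family that overlaps IRF3, had 0.15 and 0.16.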
